A study of Mus musculus with 12 samples.

Results

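The SR and hnRNP splicing regulators were followed through 12 mouse libraries in which the 3′ ends of polyadenylated RNA were sequenced. Members were the rows of the deposited table whose RefSeq ID maps to a symbol made of Srsf and a number, or to one that starts with Hnrnp. The rule found 33 of 19708 rows, 12 for Srsf and 21 for Hnrnp, under 32 symbols. The libraries came from C57BL/6 embryoid bodies (EBs) that were knockout (KO) or wild type (WT) for Mettl3, and from embryonic stem cells (ESCs) of the same 2 genotypes, each taken 0, 4 and 8 h after actinomycin, which stops transcription. ESCs were grown without serum in LIF with the inhibitors CHIR99021 and PD0325901; EBs are floating aggregates that differentiated from ESCs in serum medium over 8 to 21 days, and the labels do not give the day of each library. Each combination of genotype, cell type and time has 1 library, and the labels leave unsaid whether a condition's 3 times share a culture and how many knockout clones were used. P-values therefore measure only how far the libraries of a condition lie from a straight line over time. A true bend in the time course counts as scatter, and spread between cultures, clones or repeat libraries is not covered.

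SR proteins carry RNA-recognition motifs and a domain rich in arginine and serine, bind exonic enhancers and help the spliceosome to find splice sites. Heterogeneous nuclear ribonucleoproteins (hnRNPs) coat nascent transcripts, and many of them repress splice sites, so that the balance of both families sets exon choice. Many of these genes limit their own mRNA by splicing in an exon with an early stop codon, which sends the product to nonsense-mediated decay. METTL3 is the catalytic subunit of the complex that places N6-methyladenosine (m6A) on mRNA, and hnRNP C and hnRNP A2/B1 have been described as proteins whose binding responds to that mark.

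Of the 33 rows, 32 passed the filter on low levels. Srsf12 did not: its levels were 8.07, 40.1 and 8.82 at 0, 4 and 8 h in KO EBs, 44.1, 48.3 and 35.2 in WT EBs, 90.5, 32.1 and 92.3 in KO ESCs, and 53.3, 0 and 0 in WT ESCs. These are at most a few read equivalents (defined under processing) in any library. Srsf10 has 2 rows that differ only in WT EBs at 8 h (170 and 182), and values below are from the second unless stated. Hnrnpa1l2-ps2 is a near copy of Hnrnpa1 whose reads may not be separable from it. Without that copy and the first Srsf10 row, 10 SR genes (Srsf1 to Srsf7, Srsf9, Srsf10 and Srsf11) and 20 hnRNP genes were compared. Hnrnpab, Hnrnph3, Hnrnpk, Hnrnpu and Srsf2 overlap a gene on the opposite strand, and Hnrnpm and Hnrnpul2 one on the same strand; the sources used here do not say how overlaps were counted.

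Levels are the authors' deposited signal and are compared within a gene only. Column totals ran from 3673848 to 11086748, a 3.02-fold range, and were 8311484, 6056954 and 3673848 at 0, 4 and 8 h in WT EBs. In depth the libraries held 208874 to 666805 read equivalents. Mettl3 itself was at 16.8, 40.7 and 84.0 in KO EBs, 175, 86.0 and 77.4 in WT EBs, 98.1, 65.4 and 41.8 in KO ESCs, and 251, 64.8 and 113 in WT ESCs. KO was lower than WT in both cell types at 0 h, in EBs at 4 h and in ESCs at 8 h, but not in EBs at 8 h or ESCs at 4 h. These levels rest on few reads, since 1 read equivalent is a level of 10.6 in KO EBs at 0 h and of 32.7 in KO ESCs at 4 h. Which part of the gene the knockout removes is not in the labels, so a 3′ tag does not check them. Summed levels of 16 endoderm markers were 1801 to 2315 in KO EBs and 20950 to 27690 in WT EBs. The 8 pluripotency markers summed to 28990 to 36220 in KO EBs, 9852 to 41750 in WT EBs, 44260 to 49590 in KO ESCs and 77670 to 86590 in WT ESCs. Abundant genes weigh most in such sums. Taken singly, by the mean over the times, 5 of the 8 were higher in KO ESCs than in WT ESCs and 3 lower. Their median difference was 0.36 log2. In such bulk libraries, fewer cells of a type and less RNA per cell cannot be told apart.

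Sequence near the stop codon and at the 3′ end is shown for some of the genes named below: GGACT is a sequence of the kind that the METTL3 complex methylates, and ATTTA is the core of AU-rich elements, which are linked to rapid decay. Windows of 25 bases are from the GENCODE transcripts (GRCm38, mm10), on the transcript's strand, with the motif in capitals.
Hnrnpa0 (chr13:58127244-58127268, minus strand, 3′ UTR): ccctgaaggtGGACTcggccccaca
Hnrnpa1 (chr15:103244405-103244429, plus strand, 3′ UTR): aaaaactccaGGACTgtatttgtga
Hnrnpa3 (chr2:75665559-75665583, plus strand, 3′ UTR): ttcttgttcaGGACTgtcatagcca
Hnrnpl (chr7:28821413-28821437, plus strand, coding): tgctggagtgGGACTcgaagagcga
Srsf7 (chr17:80201540-80201564, minus strand, across the stop codon): cagaaagaatGGACTgaagttctca
Srsf7 (chr17:80200260-80200284, minus strand, 3′ UTR): tctgccccaaATTTAtttggctgag
Srsf10, first row (chr4:135863988-135864012, plus strand, coding): tcaaggtcttGGACTagtcccaagt
Srsf10, first row (chr4:135865353-135865377, plus strand, 3′ UTR): gtttttagaaATTTAgtccttgctt
Srsf3 (chr17:29043111-29043135, plus strand, 3′ UTR): ggttctcttcATTTAccatctaggt
Hnrnpd (chr5:99956110-99956134, minus strand, 3′ UTR): catttccaggATTTAttctttctag
Hnrnpdl (chr5:100034055-100034079, minus strand, 3′ UTR): agctaaatagATTTAagcagtttgc
GGACT was searched on the transcript's strand only, in 400 bases centred on the stop codon. It was present in 1 of 10 SR genes (Srsf7), in 4 of 20 hnRNP genes (Hnrnpa0, Hnrnpa1, Hnrnpa3 and Hnrnpl) and in 40.9% of 10814 tested rows with such a window. ATTTA, which cannot overlap GGACT, was searched in the last 500 bases of the 3′ UTR. It was present in 6 of 9 SR genes, in 11 of 16 hnRNP genes and in 58.9% of 8616 tested rows. Srsf10 enters these counts by the transcript of its second row, which has neither motif in these windows, whereas that of its first row has both. The ATTTA windows shown are all of genes called lower after actinomycin below, but the motif was not confined to such genes. It was also present in Srsf1, Srsf6, Hnrnpf and Hnrnpu, which were called lower too. Srsf5, Srsf11, Hnrnpa0, Hnrnpa1, Hnrnpc, Hnrnph1, Hnrnph2, Hnrnph3 and Hnrnpll had it and were not called. Srsf2 and Srsf4 had neither motif and were called lower. These are matches of letters, no site or mark was measured, and a link of motif to decay was not tested. At least 1 transcript annotated as a target of nonsense-mediated decay was listed in GENCODE for 9 of 10 SR genes (all but Srsf10) and for 10 of 20 hnRNP genes, against 28.5% of 12478 tested rows and 24.0% of 646 rows at or above the members' median level.

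At 8 h after actinomycin, less was left of SR mRNAs than of hnRNP mRNAs, by the family median, in each of the 4 conditions. At 8 h the median SR gene was at 66.1% of its level at 0 h in KO EBs, 22.3% in WT EBs, 95.0% in KO ESCs and 66.1% in WT ESCs. The median hnRNP gene was at 82.2%, 32.5%, 116.8% and 104.9% in the same order. For 10908 tested rows above 0 in every library, the medians were 82.0%, 45.8%, 94.7% and 78.2%. The hnRNP median at 8 h was thus above the SR median everywhere and above that of all rows in both ESC conditions, but below that of all rows in WT EBs. As shares of the column total, which take out the fall of the WT EB totals, the SR medians were 74.8%, 50.5%, 89.5% and 72.4% and the hnRNP medians 93.0%, 73.5%, 110.1% and 115.0%, again in the order KO EBs, WT EBs, KO ESCs and WT ESCs. At 4 h the SR median was likewise the lower one except in WT EBs, where the SR median was 68.8% and the hnRNP median 68.0%. The families were not tested against each other, and their ranges overlapped in every condition.

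**Figure D1:**
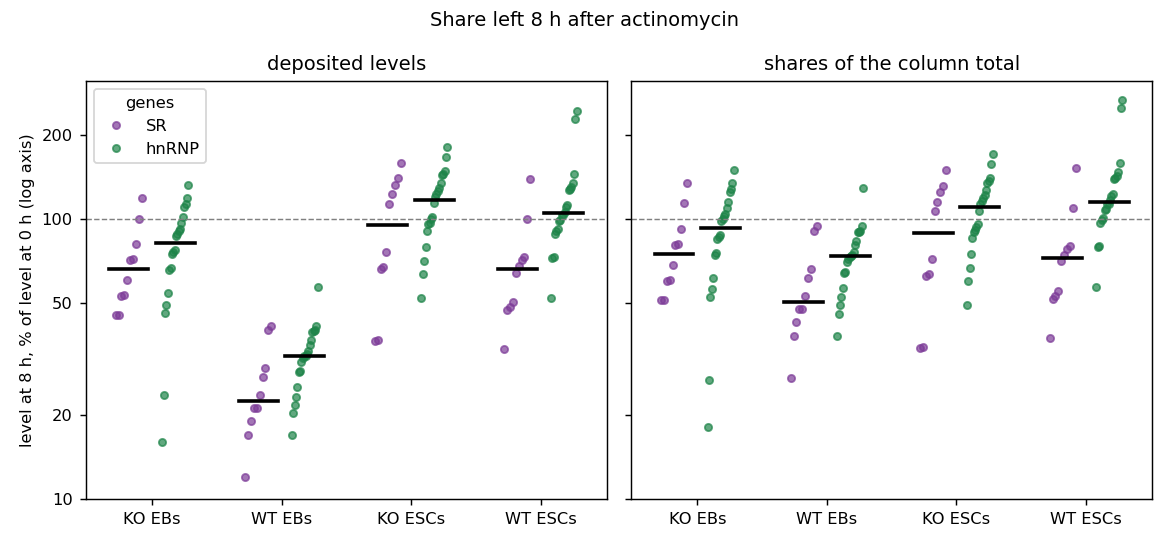
Level at 8 h as a percentage of the level at 0 h (log axis) for 10 SR genes and 20 hnRNP genes in each condition, 1 point a gene and 1 library a time, with black bars at the medians; left, deposited levels, and right, shares of the column total. The SR median lies below the hnRNP median in all 4 conditions on both scales, and WT EBs are the lowest on both (22.3% and 32.5% on the left).

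The test of the change per hour, averaged over the 4 conditions, used a straight line in each condition (limma, log2 scale, adjusted p under 0.05 over 12704 rows). It called 14 of the 32 members lower and 0 higher, against 21.4% of all rows lower and 0.236% higher (21.7% in either direction). By gene, 7 of 10 SR genes and 6 of 20 hnRNP genes were called lower, while the slopes of all 30 genes were below 0. The median slope was -0.12 log2 per hour for SR genes, -0.055 for hnRNP genes and -0.052 for all rows. The SR share lies above that background, and the hnRNP share is closer to it. Only 657 of the 12704 rows reach the members' median level, and the shares over all rows, here and below, are not matched for level. A slope depends on how the authors scaled the columns and cannot be read as a half-life. With column totals set equal, 8 members were called, and with median-ratio scaling 4. Of all rows, 30 were higher and 2723 lower on the deposited scale. These counts were 184 and 1155 with equal totals, and 233 and 819 with median-ratio scaling.

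Srsf10, Srsf4, Hnrnpdl and Hnrnpd had the least left at 8 h over the 4 conditions (geometric means of 34.8%, 36.7%, 40.8% and 42.9%). Srsf10 encodes an SR protein that represses splicing when dephosphorylated, as in heat shock. Its levels at 0, 4 and 8 h were 1284, 584 and 582 in KO EBs, 1515, 485 and 182 in WT EBs, 1641, 819 and 608 in KO ESCs, and 1944, 1182 and 1422 in WT ESCs. In each condition 0 h was the highest point, and in KO EBs and WT ESCs the fall lay between 0 and 4 h. Its mean slope was -0.19 ± 0.029 log2 per hour (SE, limma adjusted p = 0.000422). It was called under every scaling and with any 1 library left out.

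Srsf4, a large SR protein, was at 847, 594 and 449 in KO EBs, 1106, 576 and 301 in WT EBs, 1308, 1064 and 480 in KO ESCs, and 1231, 472 and 423 in WT ESCs. It fell at each step in all 4 conditions, to between 27.2% and 53.0% of its level at 0 h (mean slope -0.18 ± 0.029 log2 per hour, limma adjusted p = 0.000728). Srsf7, which acts in splicing and as an adapter for mRNA export, was at 1793, 1621 and 957 in KO EBs, 2597, 1674 and 549 in WT EBs, 4020, 3033 and 2668 in KO ESCs, and 4888, 3781 and 2363 in WT ESCs. It too fell at each step in all 4 conditions (mean slope -0.15 ± 0.023 log2 per hour, limma adjusted p = 0.000419). Both calls held under each scaling and with any 1 library left out; without both EB libraries of 8 h they were lost, and only Srsf10 remained.

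Hnrnpd, known as AUF1, binds AU-rich elements and promotes decay of the mRNAs that carry them, and Hnrnpdl is its close relative. Hnrnpd was at 853, 394 and 137 in KO EBs, 618, 487 and 220 in WT EBs, 743, 641 and 845 in KO ESCs, and 1466, 1247 and 763 in WT ESCs. The KO ESC libraries show no fall, and the lowest value, 137 in KO EBs, rests on 11.5 read equivalents (95% counting interval 69.4 to 242). Its mean slope was -0.15 ± 0.029 log2 per hour (limma adjusted p = 0.00213), a call that was lost without the KO EB library of 8 h. Hnrnpdl was at 781, 279 and 184 in KO EBs, 933, 515 and 158 in WT EBs, 926, 621 and 656 in KO ESCs, and 957, 1261 and 943 in WT ESCs. Its WT EB level at 8 h rests on 9.0 read equivalents. Its fall lay in the EBs and KO ESCs, with 98.6% left in WT ESCs (mean slope -0.16 ± 0.031 log2 per hour, limma adjusted p = 0.00217; lost without KO EBs at 0 h).

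Among the other SR genes, Srsf3, the smallest SR protein and an export adapter, had a slope of -0.13 ± 0.023 log2 per hour, and Srsf1, the founding member of the family, one of -0.13 ± 0.025 (limma adjusted p = 0.00111 and 0.00222). Srsf2, which binds exonic enhancers in the nucleus, and Srsf6 had slopes of -0.11 ± 0.029 and -0.067 ± 0.021 (limma adjusted p = 0.0126 and 0.0332). Without KO EBs at 8 h all 4 of these calls were lost, and without WT EBs at 8 h those of Srsf1, Srsf2 and Srsf6. The calls of Srsf2 and Srsf6 were lost as well without KO EBs at 0 h, KO ESCs at 0 or 8 h or WT ESCs at 8 h, and that of Srsf6 without KO EBs at 4 h or WT EBs at 0 h. Srsf5 stood apart from them: its levels were 1503, 1870 and 1508 in KO EBs, 1725, 1615 and 690 in WT EBs, 2067, 2029 and 3282 in KO ESCs, and 1985, 3337 and 2756 in WT ESCs. More Srsf5 signal was listed at 8 h than at 0 h in both ESC conditions, and only WT EBs had less at 8 h (slope -0.0053 ± 0.026 log2 per hour, limma adjusted p = 0.917).

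The other highest shares left at 8 h were those of Hnrnpa3 (geometric mean 95.4%), Hnrnpl (94.4%) and Hnrnph1 (91.5%), beside 97.0% for Srsf5. Hnrnpl, which binds CA-rich RNA, was at 8513, 8706 and 8640 in KO EBs and at 14890, 11210 and 5489 in WT EBs. In ESCs it was at 12110, 19140 and 20230 in KO and at 19960, 25640 and 25370 in WT. It was flat in KO EBs, higher after 0 h in both ESC conditions and lower in WT EBs. Hnrnpk, a poly(C)-binding protein, had a slope of -0.017 ± 0.017 log2 per hour, and Hnrnpa1, Hnrnpa2b1 and Hnrnpc, which are core proteins of hnRNP particles, had -0.032 ± 0.021, -0.029 ± 0.019 and -0.026 ± 0.024 (limma adjusted p = 0.543, 0.322, 0.315 and 0.518). None of these passed the test. The other hnRNP genes called lower were Hnrnpu, a nuclear scaffold protein (-0.080 ± 0.020), Hnrnpab (-0.077 ± 0.019), Hnrnpm (-0.069 ± 0.019) and Hnrnpf, which binds G tracts (-0.069 ± 0.018; limma adjusted p from 0.0101 to 0.0189). Each of these 4 lost its call under equal totals and without any of KO EBs at 0 or 8 h, KO ESCs at 0 h, WT EBs at 8 h and WT ESCs at 8 h. Hnrnpf, Hnrnpm and Hnrnpu lost it also without KO ESCs at 8 h or WT ESCs at 0 h.

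**Figure D2:**
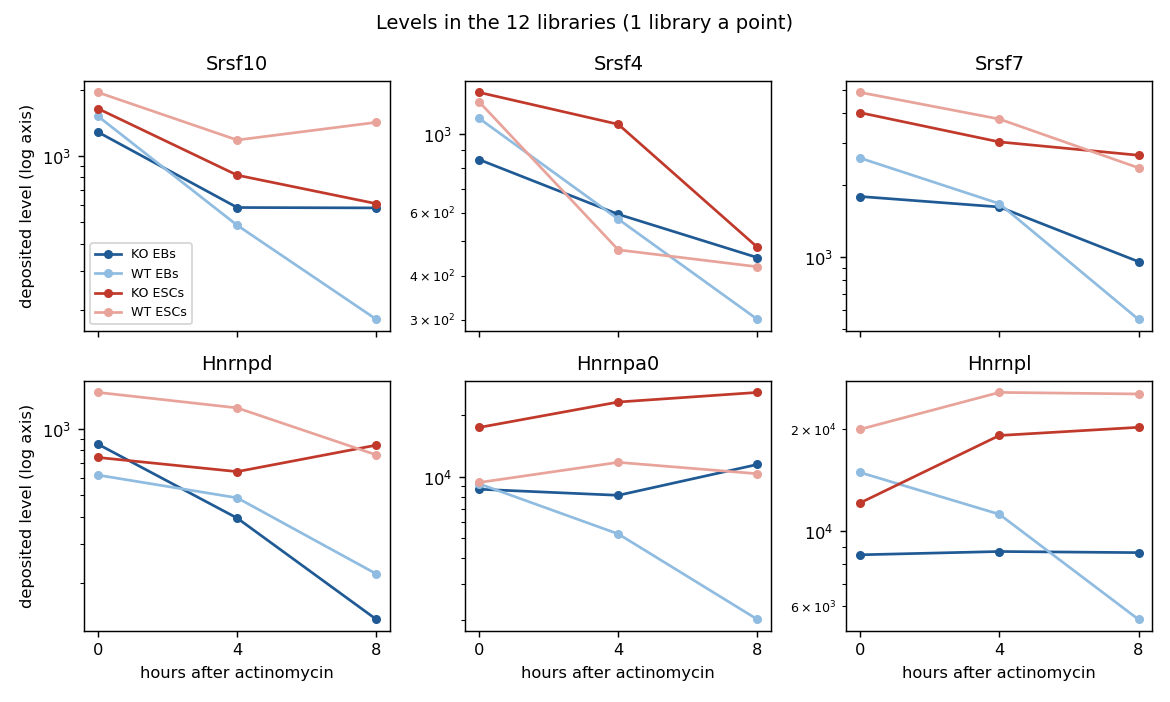
Deposited level (log axis) against hours after actinomycin for 6 genes, 1 library a point, with a line for each condition. Srsf4 and Srsf7 fall at each step in all 4 conditions, whereas Hnrnpa0 and Hnrnpl fall in WT EBs and are level or higher at 8 h in the other 3.

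By single conditions, 28 of 32 members were called lower in WT EBs (limma adjusted p under 0.05), against 26.7% of all rows lower and 26.8% in either direction, with a median slope of -0.21 log2 per hour for members and -0.12 for all rows. The steepest gene there was Srsf10 (-0.38 ± 0.057, limma adjusted p = 0.0006). Its WT EB level at 8 h rests on 10.3 read equivalents (95% counting interval 88.2 to 331). In KO EBs, KO ESCs and WT ESCs limma called 0 of 32, against 0%, 0.0315% and 5.51% of all rows called in either direction (5.35% lower in WT ESCs). The column totals fell over the same 3 WT EB libraries, and these slopes were not refitted on another scale. As shares of the column total, 10 of 10 SR genes and 19 of 20 hnRNP genes were below their 0 h value at 8 h in WT EBs. So were 5278 of the 10908 tested rows above 0 in every library. The medians were 50.5% and 73.5%, beside 103.6% for those rows.

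The regulators of the SR proteins and the rest of the splicing machinery were read from lists. In the mean slope all 12 genes for SR kinases, phosphatase subunits and import had slopes below 0, with a median of -0.15 log2 per hour. Of these, 9 were called lower and 0 higher. They included Clk3 and Clk1, nuclear kinases that phosphorylate SR proteins (-0.31 ± 0.039 and -0.23 ± 0.056), Ppp1r10 (-0.23 ± 0.069) and the kinase Prpf4b (-0.21 ± 0.038; limma adjusted p from 9.55e-05 to 0.0291). Of other splicing regulators 17 of 46 were called lower, among them Rbm5, Luc7l3, Rbm39 and Rbm10 (-0.32, -0.24, -0.23 and -0.22). Of core spliceosome genes 22 of 41 were called lower, led by Cdc5l and Sf3b4 (-0.23 and -0.22). Of nonsense-mediated decay genes 6 of 13 were, led by Eif4a3 and Smg8 (-0.17 and -0.16). The list medians were -0.086, -0.074 and -0.067, beside -0.052 for all rows. For scale, all 14 tested transcripts known as short-lived had slopes below 0, with a median of -0.22, and 10 were called lower. Among them, Dusp6 and Klf4 were at -0.41 and -0.36.

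Mettl3 KO ESCs differed from WT ESCs in 6 of 32 members over the mean of the 3 times, and all 6 were hnRNP genes. Hnrnpa0 and Hnrnpr were higher, and Hnrnph2, Hnrnph1, Hnrnpul2 and Hnrnpl were lower (limma). The background was 14.1% of all rows, 10.9% higher and 3.27% lower, and 0 of 10 SR genes were called. With higher and lower calls pooled, the members' share was not far above the 14.1% of all rows. By direction, 4 of 32 members were lower, a share above the 3.27% of all rows. In the other direction 2 of 32 were higher, a share below the 10.9% of all rows. Whether members differ from other rows in direction was not tested. With only 10 SR genes, the lack of calls among them does not set the families apart. The median difference was -0.34 log2 for the members and 0.18 for all rows. With median-ratio scaling, 1047 rows were higher and 667 lower in place of 1381 and 416. Time enters this mean, so the values at each time are given.

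Hnrnpa0, an hnRNP that binds AU-rich elements, was at 17440, 23220 and 25870 in KO ESCs and at 9389, 11780 and 10360 in WT ESCs. Every KO library was above every WT library, by 1.86-fold at 0 h, 1.97-fold at 4 h and 2.50-fold at 8 h (difference 1.06 ± 0.16 log2, limma adjusted p = 0.000539). Hnrnph1, which binds G tracts, was at 1352, 2216 and 2443 in KO ESCs and at 3417, 4318 and 4601 in WT ESCs. All 3 KO libraries were below the lowest WT library (-1.07 ± 0.22 log2, limma adjusted p = 0.00468). These 2 calls held under the 3 other scalings; that of Hnrnph1 was lost without KO ESCs at 0 h or at 8 h. Additive time terms or the fitted line at 0 h left 0 of the 6 calls, and an untrended variance prior left only Hnrnph2.

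Hnrnph2, the X-linked relative of Hnrnph1, was at 357, 381 and 428 in KO ESCs and at 1237, 723 and 898 in WT ESCs (-1.24 ± 0.33 log2, limma adjusted p = 0.0197). Hnrnpr was at 592, 498 and 748 in KO ESCs and at 331, 262 and 241 in WT ESCs, where it rests on 7.4 to 14.4 read equivalents a library (1.11 ± 0.30 log2, limma adjusted p = 0.0231). Neither gene's genotypes overlapped. Hnrnpul2, of the family of Hnrnpu, was at 1725, 1159 and 1375 in KO ESCs and at 2144, 2515 and 3110 in WT ESCs (-0.87 ± 0.24 log2, limma adjusted p = 0.0243). Hnrnpl, with the values given above, differed by -0.49 ± 0.15 log2 (limma adjusted p = 0.0402), and its genotypes overlapped by a single KO library, that of 8 h. These 4 calls were lost without KO ESCs at 0 h or at 8 h, and with the 0 h or 8 h WT ESC library left out. Those of Hnrnph2 and Hnrnpul2 were lost without KO ESCs at 4 h too, those of Hnrnpr, Hnrnpul2 and Hnrnpl without WT ESCs at 4 h, and that of Hnrnpl without any of the KO EB libraries.

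Of the remaining genes named in every comparison, Srsf10 and Srsf2 differed by -0.66 ± 0.27 and -0.60 ± 0.27 log2 in KO ESCs against WT ESCs, and Hnrnpa2b1 by -0.46 ± 0.17 (limma adjusted p = 0.115, 0.163 and 0.0931). Srsf3, Srsf1, Srsf7 and Srsf5 lay between -0.38 and -0.13 log2, and Hnrnpa1, Hnrnpc and Hnrnpk between -0.28 and -0.11. None passed the test. Among the lists, Dyrk1a, a kinase of splicing factors, was higher in KO ESCs (1.63 ± 0.43 log2) and Tnpo3, the importin of SR proteins, lower (-1.37 ± 0.22; limma adjusted p = 0.0201 and 0.000977). In that list 1 of 12 was higher and 2 were lower. Of other splicing regulators 2 of 46 were higher, led by Esrp2 at 2.55 ± 0.67, and 1 was lower, Nono at -1.03 ± 0.21. Of core spliceosome genes 1 of 41 was higher and 4 were lower, among them Plrg1 and Prpf19 (-1.06 and -1.04), and of nonsense-mediated decay genes 0 of 13 were called.

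Mettl3 KO EBs were higher than WT EBs in 3 of 32 members, Hnrnpr, Hnrnpa0 and Hnrnpf, and lower in 0 (limma), against 9.22% of all rows called, 7.66% higher and 1.56% lower. The members' count is about what that share gives and does not set them apart from other rows. The members' median difference was 0.13 log2, and that of all rows 0.088. With equal totals 2 members were higher and 2 lower, and with scaling to ribosomal protein genes 1 was higher and 3 lower. Of all rows, 973 were higher and 198 lower as deposited. These counts were 630 and 359 with equal totals, and 417 and 457 with the ribosomal protein scaling. Markers moved with the genotype here: in KO EBs 12 of 13 tested endoderm markers and 3 of 5 fibroblast markers were lower, 5 of 8 pluripotency markers were higher, and the others of these lists were not called. Whether the mix of cells has a part in the differences below was not tested.

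Hnrnpa0 was at 8703, 8129 and 11500 in KO EBs and at 9254, 5263 and 2011 in WT EBs. The genotypes were close at 0 h (0.94-fold) and 5.72-fold apart at 8 h, or 3.36-fold as a share of the column total (difference over the 3 times 1.02 ± 0.16 log2, limma adjusted p = 0.00078). This call held under each scaling and was lost without KO EBs at 0 h or at 8 h. Hnrnpf was at 3328, 3286 and 3070 in KO EBs and at 3606, 2177 and 907 in WT EBs (0.74 ± 0.17 log2, limma adjusted p = 0.0109). Hnrnpr was at 427, 425 and 372 in KO EBs and at 360, 157 and 102 in WT EBs (1.13 ± 0.30 log2, limma adjusted p = 0.0266). Its WT EB levels at 4 and 8 h rest on 9.8 and 5.8 read equivalents. In WT EBs all 3 genes were lower at each later time. In KO EBs Hnrnpf and Hnrnpr varied little, and Hnrnpa0 was higher at 8 h than at 0 h (counting intervals 10780 to 12250 and 8118 to 9320). Such intervals cover counting error only. The slope of Hnrnpa0 in KO EBs was 0.050 ± 0.034 log2 per hour and was not called (limma adjusted p = 0.881). Hnrnpf and Hnrnpr lost their calls without any of KO EBs at 0, 4 or 8 h and WT EBs at 0 or 8 h, and Hnrnpr without WT EBs at 4 h. Hnrnpr was not called under any of the 3 other scalings, nor Hnrnpf under median-ratio or ribosomal protein scaling, and none of the 3 genes with an untrended prior, additive time terms or the fitted line at 0 h. At 0 h alone, 16 of 20 hnRNP genes and 9 of 10 SR genes were lower in the KO EB library than in the WT EB library, with median ratios of 0.680 and 0.817, beside 61.1% of 10908 tested rows and a median of 0.866. As shares of the column total, 14 of 20 hnRNP genes and 7 of 10 SR genes were lower, with medians of 0.799 and 0.959, beside 48.8% of rows and a median of 1.02. At 8 h, 18 of 20 hnRNP genes and 10 of 10 SR genes were higher in KO EBs, with median ratios of 1.67 and 2.13, beside 66.3% of rows and a median of 1.41. As shares of the column total these medians were 0.979 and 1.25, beside 0.827.

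Of the genes named throughout, Hnrnpc and Srsf10 had the largest uncalled differences between KO EBs and WT EBs, at 0.63 ± 0.22 and 0.55 ± 0.27 log2 (limma adjusted p = 0.103 and 0.253). Srsf1, Srsf5 and Srsf2 were at 0.39, 0.38 and 0.31, Hnrnpk, Hnrnpa1, Srsf7 and Hnrnpa2b1 at 0.26, 0.17, 0.071 and 0.0089, and Hnrnpl and Srsf3 at -0.17 and -0.26. In the lists, 4 of 46 other splicing regulators were higher in KO EBs, led by Rbm17 at 1.20 ± 0.21 log2, and 1 was lower, Tra2a at -1.16 ± 0.29 (limma adjusted p = 0.00213 and 0.0205). Of core spliceosome genes 5 of 41 were higher, led by Snrpb2 at 1.08 ± 0.20 and Prpf31 at 0.89 ± 0.24, and 0 were lower. Of SR kinases and import genes 0 of 12 were called, and of nonsense-mediated decay genes 0 of 13.

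**Figure D3:**
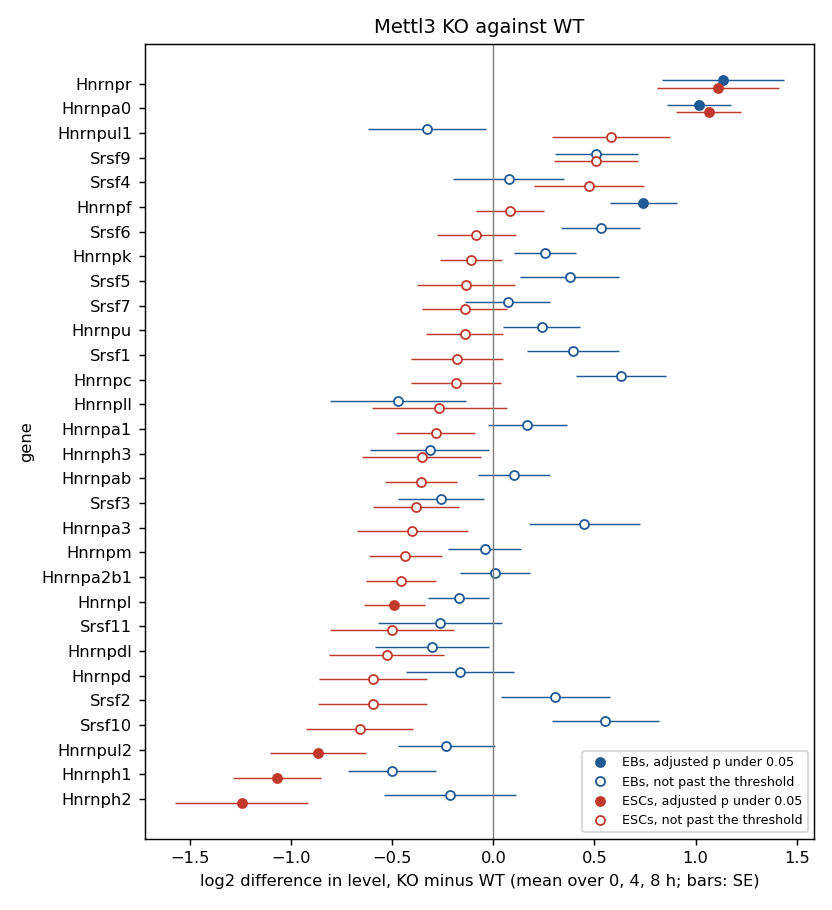
Difference in level between Mettl3 KO and WT (log2, mean over 0, 4 and 8 h, bars are limma's SE) for 30 genes in EBs and ESCs, with filled points where the adjusted p is under 0.05. Hnrnpr and Hnrnpa0 are filled on the right in both cell types, Hnrnpf in EBs alone, and Hnrnph2, Hnrnph1, Hnrnpul2 and Hnrnpl on the left in ESCs alone.

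Whether the genotype difference itself differed between EBs and ESCs was tested directly, and limma called 0 of 32 members, against 2.86% of all rows, 1.5% higher and 1.35% lower (9 members had an unadjusted p under 0.05). The smallest p were those of the Srsf10 rows (1.25 ± 0.37 and 1.21 ± 0.37 log2, limma adjusted p = 0.0983 and 0.108) and of Hnrnpf (0.66 ± 0.24, limma adjusted p = 0.171). No member was thus shown to differ in 1 cell type alone. In the lists Nono and Snrpf were called, at 1.78 ± 0.30 and 1.03 ± 0.22 log2 (limma adjusted p = 0.00335 and 0.0191).

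For the change per hour, KO against WT, limma called 0 of 32 members in ESCs, against 0.0394% of all rows, and 1 member had an unadjusted p under 0.05. The smallest p there were those of Hnrnpll, Srsf11 and Hnrnph3 (-0.23 ± 0.10, 0.19 ± 0.094 and -0.16 ± 0.090 log2 per hour; limma adjusted p from 0.460 to 0.587). In EBs 2 members had higher slopes in KO than in WT, Hnrnpa0 and Hnrnpf (0.32 ± 0.049 and 0.23 ± 0.051 log2 per hour, limma adjusted p = 0.0237 and 0.0439), against 1.19% of all rows higher. The median slope difference was 0.18 log2 per hour for the members and 0.083 for all rows, and 20 members had an unadjusted p under 0.05. Hnrnpl, Hnrnpa1 and Hnrnpa2b1 were at 0.18, 0.24 and 0.19, and Hnrnpk, Hnrnpc, Srsf1, Srsf2, Srsf3, Srsf5, Srsf7 and Srsf10 lay between 0.13 and 0.23, none past the threshold. In the lists Tardbp, Pcbp1, Snrnp70 and Sf3b5 were called (0.30, 0.26, 0.30 and 0.25). With equal totals, median-ratio or ribosomal protein scaling 0 members were called, so the 2 calls rest on the deposited scale, on which the WT EB totals fall. With any 1 KO library or WT EBs at 8 h left out, neither call was kept, and that of Hnrnpf was kept only without WT EBs at 4 h.

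EBs were below ESCs in 30 of 32 members and above in 0 (limma, mean over both genotypes and 3 times), against 43.6% of all rows called, 40.5% lower and 3.06% higher. Only Srsf4 and Hnrnph3 did not pass (-0.32 ± 0.19 and -0.47 ± 0.21 log2, limma adjusted p = 0.200 and 0.0796). The members' median difference was -1.07 log2 and that of all rows -0.55. With column totals set equal these medians were -0.29 and 0.23, and 9 members were called, all lower. Of all rows, 389 were higher and 5149 lower as deposited, against 2174 higher and 686 lower with equal totals. The calls of Hnrnph2, Hnrnpc, Hnrnpab, Hnrnpf, Hnrnpk, Hnrnpa0, Hnrnpl, Srsf3 and Srsf7 held under every scaling.

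Hnrnph2 had the largest fall, to 152, 93.4 and 70.6 in KO EBs, against 357, 381 and 428 in KO ESCs, and to 261, 101 and 60.5 in WT EBs, against 1237, 723 and 898 in WT ESCs (-2.37 ± 0.23 log2, limma adjusted p = 3.43e-06). All 6 EB libraries were below all 6 ESC libraries; the WT EB value at 8 h rests on 3.4 read equivalents. Hnrnpc, which binds uridine tracts in nascent RNA, was at 807, 746 and 888 in KO EBs and at 804, 547 and 321 in WT EBs, against 1488, 1632 and 1833 in KO ESCs and 1711, 2155 and 1773 in WT ESCs. Here too the cell types did not overlap (-1.42 ± 0.16 log2, limma adjusted p = 9.54e-06). Hnrnpab, Hnrnpf, Srsf7, Hnrnpd, Srsf2 and Srsf11 followed, from -1.35 to -1.23 log2. Hnrnpk, Hnrnpl, Srsf3, Hnrnpa2b1, Srsf10, Hnrnpa1, Srsf5 and Srsf1 were at -1.16, -1.12, -1.17, -0.996, -0.91, -0.88, -0.82 and -0.70, the last of which was 0.095 with equal totals. The call of Srsf1 was also lost without KO EBs at 0 h or at 8 h.

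At 0 h the cell types were closer. The fitted lines at 0 h called 6 members, all lower in EBs: Hnrnph2, Hnrnpc, Hnrnpab, Hnrnpf, Hnrnpk and Srsf7. Of the 12704 rows, 495 were lower and 53 higher there, and the medians were -0.45 log2 for the members and -0.39 for all rows. In the untreated libraries the median ratio of EBs to ESCs was 0.707 for SR genes and 0.632 for hnRNP genes in KO, and 0.801 and 0.775 in WT. As shares of the column total these medians were 1.04 and 0.934 in KO and 1.06 and 1.03 in WT, with 6 of 10 SR genes above 1 in each genotype. The plot of EB to ESC ratios shows this spread. These ratios were not taken over all rows, so they do not set the members apart from other rows. Of the markers tested, 11 of 13 for endoderm were higher in EBs and 6 of 8 for pluripotency lower, as means over both genotypes. The summed endoderm levels were higher in EBs in WT only. They were 20950 to 27690 in WT EBs against 4426 to 4821 in WT ESCs. In KO they were 1801 to 2315 in EBs against 4144 to 5454 in ESCs. The part of the mix of cells was not tested. Of the lists, 6 of 12 SR kinase and import genes, 39 of 46 other splicing regulators, 39 of 41 core spliceosome genes and 10 of 13 nonsense-mediated decay genes were lower in EBs and 0 higher, with medians of -0.74, -0.98, -1.10 and -1.06 log2.

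**Figure D4:**
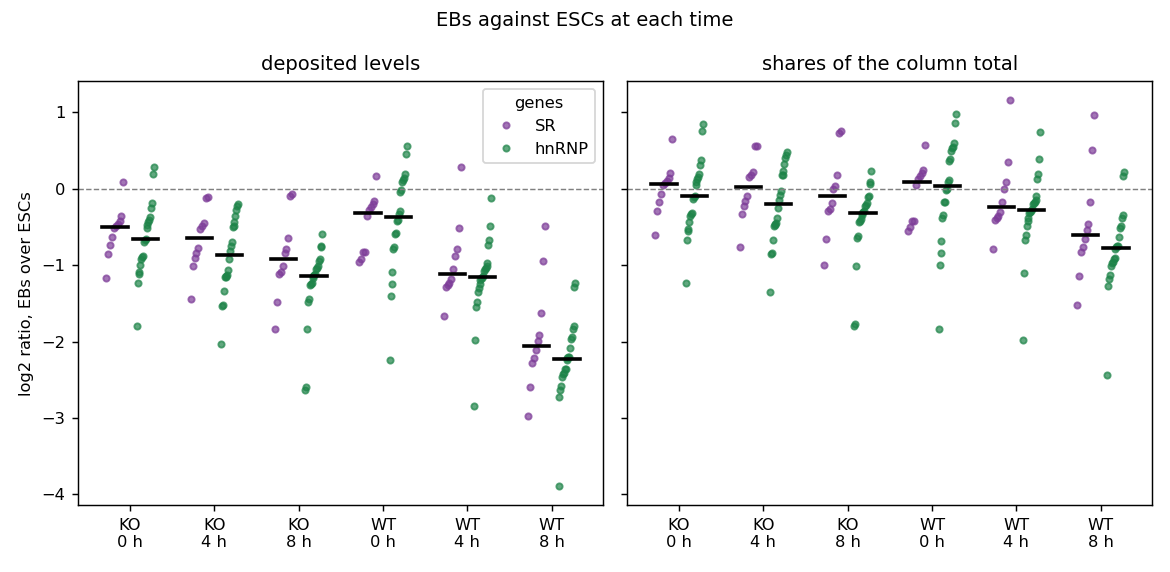
Log2 ratio of the level in EBs to that in ESCs at 0, 4 and 8 h in KO and in WT, for 10 SR genes and 20 hnRNP genes, 1 point a gene, with black bars at the medians; left, deposited levels, and right, shares of the column total. On the left the medians lie below 0 at every time and are lowest in WT at 8 h; on the right the medians at 0 h lie near 0.

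The change per hour was compared between EBs and ESCs as well, and limma called 0 of 32 members, against 0.00787% of all rows, while 21 members had an unadjusted p under 0.05. The smallest p were those of Hnrnpl, Hnrnpa2b1 and Hnrnpa0 (-0.16 ± 0.032, -0.17 ± 0.037 and -0.16 ± 0.034 log2 per hour, each with a limma adjusted p of 0.092). The members' median was -0.14 log2 per hour and that of all rows -0.047. Without WT EBs at 0 h 7 members were called among 169 rows, all lower, and without WT EBs at 4 h 8 among 196 rows, all lower.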

How the data were processed

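For all 12 libraries the authors deposited a single table, with a normalized signal in each RefSeq row that is never below 0. CASAVA 1.8.2, Bowtie, Bowtie2 2.1.0 and mm10 are named in the submitters' processing notes; the counting and scaling steps are not given in the sources used here. Per the labels' protocols, fragmented RNA was selected on poly(A) ends and made into cDNA that keeps the strand. Of 19746 rows, 19535 got a symbol from a mouse gene table (GRCm38.p6) and 98 from GENCODE, both by RefSeq ID; dropping 38 identical duplicates left 19708.

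In each library at least 99.8% of values under 100 were multiples of a step, within 0.1 of a step. Taking 50 steps as 1 read, an inference, gives the read equivalents; exact Poisson 95% intervals on them cover counting error only. No count model was run.

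The tests used limma 3.58.1 (R 4.3.3) and log2(level + 8.58), 8.58 being 1 ppm of the mean column total, over the 12704 rows whose mean level reached 42.9 (5 ppm). Low genes' changes are understated on that scale. Each row's model had 8 coefficients, an intercept and a line over hours for each of 4 conditions, 4 residual degrees of freedom and a trended prior worth 11.1. Level differences are means over 0, 4 and 8 h. P-values are Benjamini-Hochberg adjusted over all rows, with a threshold of 0.05. Steps were checked on simulated data.

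Named in every comparison were Srsf1, Srsf2, Srsf3, Srsf5, Srsf7, Srsf10, Hnrnpa1, Hnrnpa2b1, Hnrnpc, Hnrnpk and Hnrnpl, then called members (up to 8 a direction, or the 3 with the smallest p), the 4 lowest and 4 highest shares left, and up to 4 called genes of each list. Members and lists were chosen with earlier results of these data known. Alternatives were a pseudocount of 5 ppm, no filter, 3 other scalings, an untrended prior, leaving out libraries, additive time terms and the fitted line at 0 h. Srsf12 was below the filter, and Snrnp40 and Magoh were not found by symbol.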

Additional observations from a re-analysis of the deposited data

How the results depend on the processing

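In the mean slope, 14 calls became 8 with equal column totals, 4 with median-ratio scaling and 7 with an untrended prior. They became 2 without both EB libraries of 8 h, and 5 to 14 with 1 library left out. Over all rows, the 2723 lower calls of the main fit became 1155, 819 and 1604 with equal totals, median-ratio scaling and an untrended prior. For KO against WT in ESCs, 6 calls became 1 with an untrended prior and 0 with additive time terms or the fitted line at 0 h. They became 1 to 7 with 1 library left out. Calls over all rows were 857 higher and 190 lower with an untrended prior. With additive time terms they were 946 and 196, and with the line at 0 h 22 and 25. For KO against WT in EBs, 3 calls became 1 with median-ratio scaling and 0 with an untrended prior, additive time terms or the line at 0 h. They became 0 without both EB libraries of 8 h, and 0 to 3 with 1 library left out. Calls over all rows were 653 higher and 271 lower with median-ratio scaling, and 271 and 82 with an untrended prior. With additive time terms they were 395 and 108, and with the line at 0 h 6 and 50. For EBs against ESCs, 30 calls became 9 with equal totals or median-ratio scaling, 14 with ribosomal protein scaling and 6 with the line at 0 h. They became 26 to 30 with 1 library left out. Calls over all rows were 2174 higher and 686 lower with equal totals, and 1618 and 959 with median-ratio scaling. With ribosomal protein scaling they were 1315 and 1273, and with the line at 0 h 53 and 495. For the slope difference between KO and WT in EBs, 2 calls became 0 with no filter, each of the 3 scalings or an untrended prior. They became 0 without both EB libraries of 8 h, and 0 to 6 with 1 library left out. Over all rows, the 151 calls of the main fit became 4 with no filter and 5 with ribosomal protein scaling. They became 0 with equal totals, median-ratio scaling or an untrended prior. The slope difference between EBs and ESCs had 0 calls, and 0 to 8 with 1 library left out. The test of whether genotype differences differ between cell types, and the slope difference in ESCs, gave 0 under every setting. The cause of these changes was not tested. Signs turned in 3 of the named differences that were called: with the line at 0 h, KO against WT in EBs was -0.28 log2 for Hnrnpa0 and -0.19 for Hnrnpf, and with equal totals EBs against ESCs was 0.095 log2 for Srsf1. Of 77 named differences that were not called, 44 had another sign under at least 1 alternative. Of 36 named differences called, 28 lost the call under at least 1 of 21 alternatives. No paired analysis was possible because each group has 1 library and the labels carry no replicate numbers; the additive time terms above match libraries by time instead.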
